A study of Caenorhabditis elegans with 9 samples.

Results

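The 9 genes described here are dod-3, dod-17, dod-19, dod-20, dod-21, dod-22, dod-23 and dod-24, named for lying downstream of the transcription factor DAF-16, and C17H12.8, which encodes a CUB-like protein. They were taken by name, and were chosen partly on the array differences between mutants and wild type given here, since several read higher in a mutant, out of 17118 genes that the array reads with a probe set of their own. The array has 10 probe sets for 8 of the 9 genes, and dod-21 is read by 1 probe set that it shares with the gene cld-1. The samples were Caenorhabditis elegans larvae of the first stage (L1), hatched and kept for 48 h in sterile buffer without food. The 3 strains, with 3 arrays each labelled as biological replicates, were ogt-1(ok430), which lacks the O-GlcNAc transferase, oga-1(ok1207), which lacks the O-GlcNAcase, and wild type. Each mutant is represented by 1 allele. All 3 strains were starved, so no array shows fed larvae, and no strain is labelled with a mutation in daf-16 or in the insulin receptor gene daf-2.

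DAF-16 is the FOXO factor at the end of the worm's insulin-like pathway: signalling through the receptor DAF-2 keeps it out of the nucleus, and it enters the nucleus when signalling falls, as in starvation. The dod genes were named from array studies of daf-2 mutants. There, dod-3 was among the genes raised when DAF-16 is active, and dod-17 to dod-24 were among those lowered. Several genes of the second kind, dod-22 and dod-24 among them, and C17H12.8 are also known as intestinal genes of the defence against bacteria that depends on the p38 kinase PMK-1. OGT-1 adds the sugar O-GlcNAc to proteins of the nucleus and cytoplasm, and OGA-1 takes it off.

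Array values are on a log2 scale and carry no read depth, and their precision rests on 3 arrays a strain. Array means were 7.36 and medians ran from 6.80 to 6.87. Probe sets for 5 yeast controls, sequences that worms lack, had strain means up to 6.26, and values no higher than that cannot be told from background. The labelled stage was checked with 8 genes of adults or gametes: the yolk protein genes vit-2 and vit-5, the sperm gene msp-142 and the adult collagen gene col-19 lay at or below 6.26 in each strain and spe-9 in 2 of 3, while vit-6, rme-2 and cbd-1 lay above it in each. Of the 2 probe sets for ogt-1, the brighter read 11.36 ± 0.20 in the strain labelled ogt-1, 11.16 ± 0.23 in the one labelled oga-1 and 11.58 ± 0.24 in wild type, and the dimmer 10.41 ± 0.08, 10.62 ± 0.08 and 11.02 ± 0.19 in the same order (SD, n = 3). The dimmer was lower in ogt-1 than in wild type by the limma test (-0.61, adjusted p = 0.0124), and the brighter was not (-0.22, adjusted p = 0.581). The brightest of 3 probe sets for oga-1 read 9.48 ± 0.08, 9.39 ± 0.30 and 9.41 ± 0.47. The sources used here do not place these probes relative to either deletion, so they do not check the labels.

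In the ogt-1 larvae, dod-24, dod-17, dod-22 and C17H12.8 read higher than in wild type, and in the oga-1 larvae dod-24, dod-22 and C17H12.8 did. Where a gene had more than 1 probe set, the brighter was counted: 4 of the 8 genes passed the limma test as higher in ogt-1 (adjusted p under 0.05 over all probe sets), where 1.79% of all 22548 probe sets did. In oga-1, 3 of 8 passed as higher, against 0.727% of all probe sets. None of the 8 passed as lower with either mutant, where 2.12% (ogt-1) and 1.21% (oga-1) of all probe sets did. The arrays of the strains did not overlap in 4 of 8 genes for each mutant with wild type, where 22.5% (ogt-1) and 16.5% (oga-1) of all probe sets did not. The median difference from wild type over the 8 genes was 1.06 in ogt-1 and 0.49 in oga-1, and over all probe sets it was 0.005 and 0.009 (log2). Since these differences helped to choose the genes, the counts describe them and support nothing further. Both comparisons also use the same 3 wild type arrays.

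**Figure D1:**
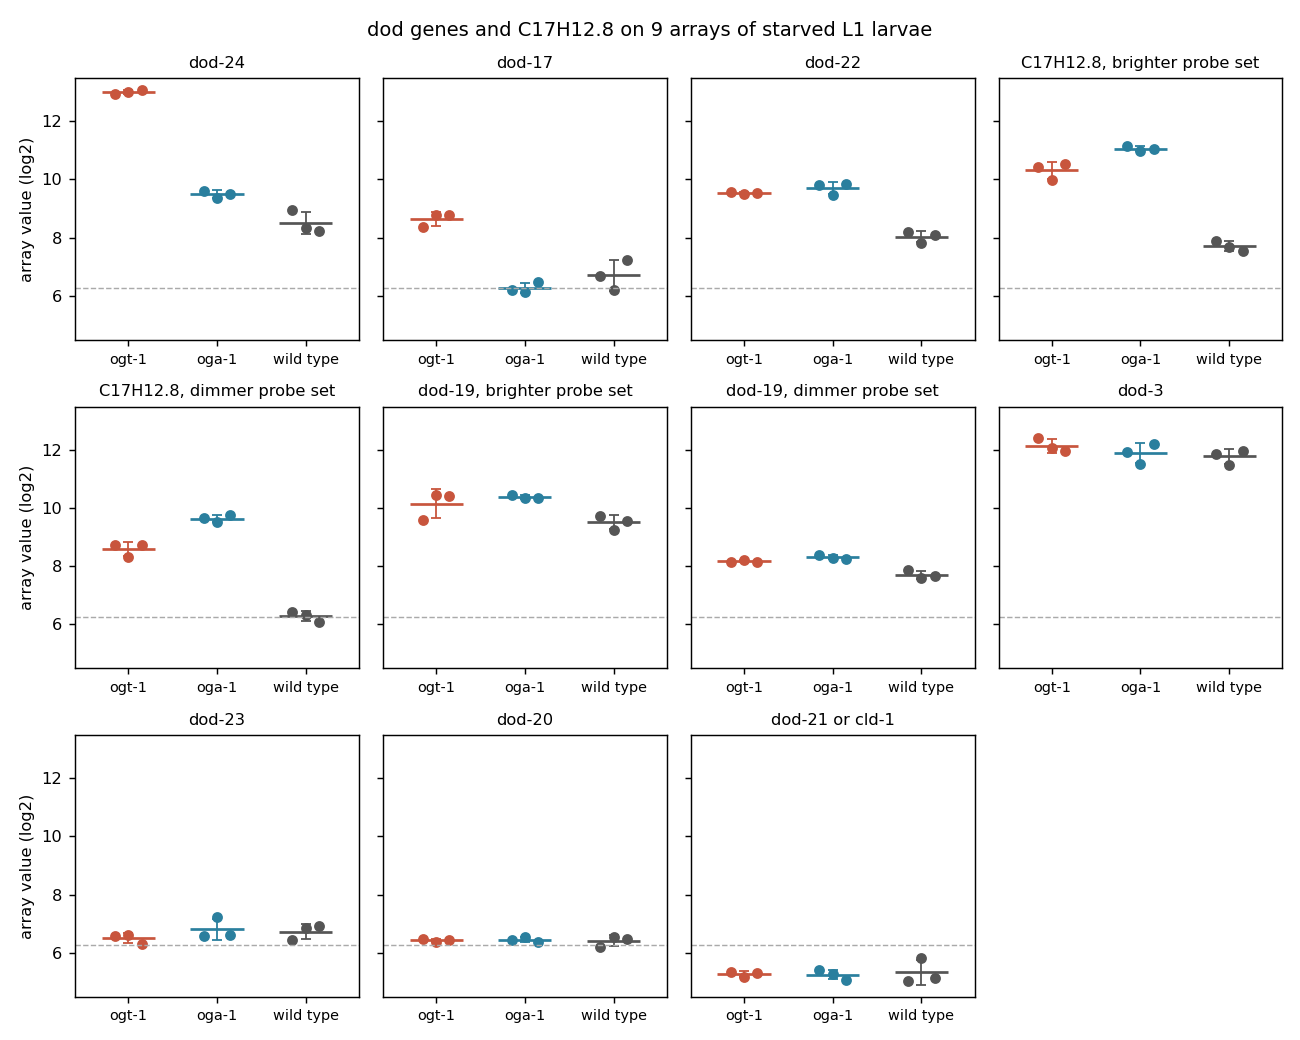
Array values (log2, vertical axis) of the 11 probe sets in the ogt-1, oga-1 and wild type strains. Points are arrays, in the order of replicate 1 to 3, horizontal bars are means, error bars are SD (n = 3), and the dashed line marks the highest yeast control level, 6.26. The dod-24 values of ogt-1 stand near 13, and dod-17 is high in ogt-1 alone, whereas C17H12.8 is highest in oga-1.

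The gene with the widest spread between strains was dod-24. It read 12.94, 12.99 and 13.06 in ogt-1, 9.62, 9.35 and 9.51 in oga-1, and 8.94, 8.33 and 8.24 in wild type. The 3 strains did not overlap, and their order was ogt-1, oga-1, wild type. The ogt-1 level was 22.5-fold that of wild type (log2 difference 4.49 ± 0.16), and the oga-1 level was 1.98-fold that of wild type (0.99 ± 0.16). The smaller of these differences passed the test in 7 of the 9 fits that left out 1 array, the exceptions being those lacking oga-1 replicate 1 or wild type replicate 2. Each ± on a difference, here and below, is the SE of the limma fit, which pools the spread of the 3 strains (n = 3 each). Within strains the SD was 0.06 in ogt-1, 0.13 in oga-1 and 0.38 in wild type, where replicate 1 was the highest. The probe set is of the kind that can bind transcripts of related genes, so part of its value may come from them.

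For dod-17, which lies near dod-24 on chromosome IV, the values were 8.38, 8.79 and 8.77 in ogt-1, 6.21, 6.14 and 6.47 in oga-1, and 6.69, 6.19 and 7.23 in wild type. All ogt-1 arrays lay above all others, while oga-1 and wild type overlapped. The difference from wild type was 1.94 ± 0.22 in ogt-1, or 3.84-fold, and -0.43 ± 0.22 in oga-1, which did not pass. The ogt-1 call was kept in each of the 9 fits without 1 array. The wild type arrays were uneven (SD 0.52), and oga-1 replicates 1 and 2 and wild type replicate 2 lay below 6.26, within the range of the yeast controls.

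The values of dod-22 were 9.57, 9.49 and 9.52 in ogt-1, 9.82, 9.48 and 9.86 in oga-1, and 8.19, 7.83 and 8.08 in wild type. Both mutants lay wholly above wild type and overlapped with each other. Relative to wild type the level was 2.82-fold with the ogt-1 mutation (1.49 ± 0.13) and 3.22-fold with oga-1 (1.69 ± 0.13), and each call was kept without any 1 of the 9 arrays. Leaving out 1 array gave differences of 1.39 to 1.57 in ogt-1 and 1.59 to 1.81 in oga-1.

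C17H12.8 was read by 2 probe sets. The brighter read 10.43, 9.99 and 10.52 in ogt-1, 11.16, 10.98 and 11.04 in oga-1, and 7.89, 7.67 and 7.56 in wild type. The dimmer, which can bind related transcripts, read 8.72, 8.30 and 8.73 in ogt-1, 9.64, 9.51 and 9.74 in oga-1, and 6.42, 6.34 and 6.10 in wild type. On each probe set the order was oga-1, ogt-1, wild type, with no overlap between strains. The brighter gave 6.08-fold the wild type level in ogt-1 (log2 difference 2.60 ± 0.14) and 10.2-fold in oga-1 (3.35 ± 0.14). The dimmer gave log2 differences of 2.30 ± 0.14 and 3.34 ± 0.14, with no fold given because its wild type mean of 6.29 lay at the level of the highest yeast control. Across the 9 arrays the correlation of the 2 probe sets was 0.994. All 4 differences passed in each fit without 1 array.

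The other gene with 2 probe sets, dod-19, lies on chromosome V. Its brighter probe set is of the kind that can bind transcripts of related genes, and its dimmer is not. The brighter read 9.57, 10.46 and 10.40 in ogt-1, 10.46, 10.34 and 10.34 in oga-1, and 9.73, 9.25 and 9.56 in wild type. The oga-1 arrays lay above wild type, but ogt-1 replicate 1 fell within the wild type range. The differences of 0.63 ± 0.21 (ogt-1) and 0.87 ± 0.21 (oga-1) did not pass over all 9 arrays, and each passed when ogt-1 replicate 1 was left out. With replicate number as a block on the oga-1 and wild type arrays alone, the oga-1 difference passed too, which makes 4 of 8 genes. Those numbers were taken as pairs because same-numbered arrays of these strains deviated alike, and the labels do not state a pairing. This block was added after seeing the data, and no share of all probe sets that pass with it is given. The dimmer probe set read 8.16, 8.21 and 8.15 in ogt-1, 8.39, 8.28 and 8.25 in oga-1, and 7.86, 7.60 and 7.65 in wild type, with no overlap between any strains. Against wild type this probe set differed by 0.47 ± 0.10 for ogt-1 and by 0.60 ± 0.10 for oga-1, and both passed. The first did not hold when any of the 3 ogt-1 arrays or wild type replicate 2 or 3 was dropped, and the second was lost without oga-1 replicate 1 or wild type replicate 2. The correlation of its 2 probe sets over the 9 arrays was 0.856.

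In dod-3, known as a gene raised by active DAF-16, the strains overlapped. Its arrays read 12.39, 12.06 and 11.94 in ogt-1, 11.91, 11.51 and 12.20 in oga-1, and 11.86, 11.48 and 11.96 in wild type. The differences from wild type were 0.36 ± 0.19 in ogt-1 and 0.11 ± 0.19 in oga-1, and neither passed. This probe set, too, is of the kind that can bind transcripts of related genes.

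No difference of dod-23, dod-20 or the probe set shared by dod-21 and cld-1 passed either. For dod-23, on chromosome II, the values were 6.58, 6.62 and 6.30 in ogt-1, 6.58, 7.22 and 6.63 in oga-1, and 6.43, 6.84 and 6.92 in wild type. The strains overlapped, with differences of -0.23 ± 0.18 for ogt-1 and 0.08 ± 0.18 for oga-1. The 9 values of dod-20, which is separated from dod-19 by 2 genes, ran from 6.20 to 6.55, with means of 6.43, 6.46 and 6.41 in ogt-1, oga-1 and wild type. Its differences from wild type were 0.02 ± 0.11 and 0.05 ± 0.11. These levels lie close to the highest yeast control. The shared probe set read 5.27 ± 0.10, 5.25 ± 0.16 and 5.33 ± 0.43 in the same order, below that control in all strains, so it shows no signal above background for either gene.

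**Figure D2:**
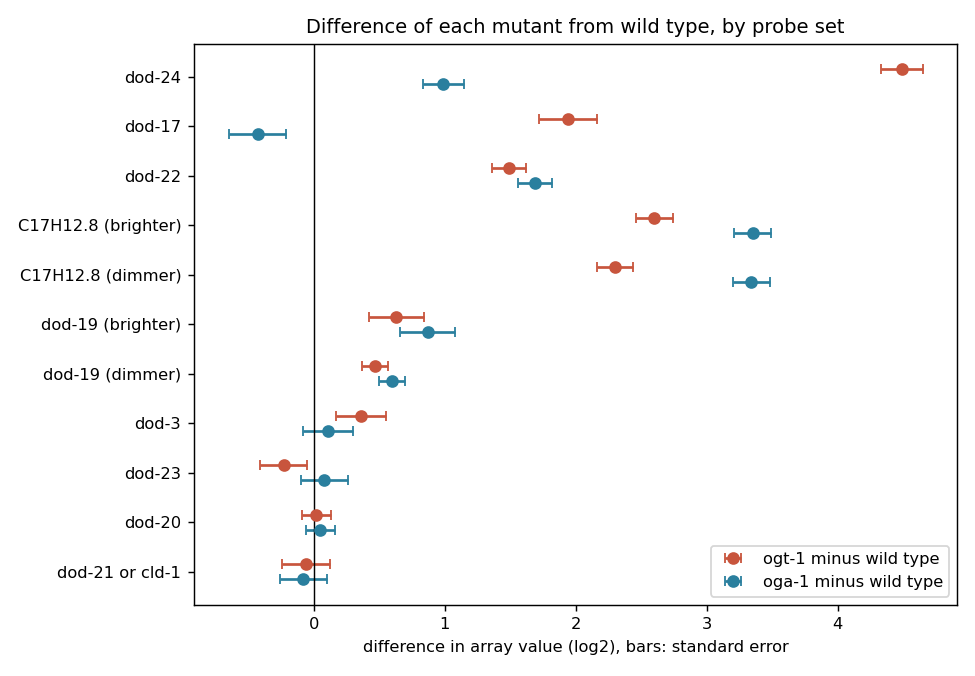
Difference of each mutant from wild type (log2, horizontal axis) for each probe set, with bars of 1 standard error from the fit over 9 arrays. The ogt-1 points exceed the oga-1 points for dod-24 (4.49 and 0.99) and dod-17 (1.94 and -0.43), the oga-1 points exceed the ogt-1 points for C17H12.8, and points near 0 are those of dod-23, dod-20 and the shared probe set.

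Between the mutants, the genes split by direction. In oga-1 larvae dod-24 read 11.3-fold lower than in ogt-1 larvae (-3.50 ± 0.16) and dod-17 lower by a log2 difference of -2.37 ± 0.22, and the arrays of the 2 strains did not overlap for either gene. No fold is given for dod-17, since its oga-1 mean of 6.27 lay at the level of the highest yeast control. C17H12.8 was 1.68-fold higher in oga-1 on the brighter probe set (0.75 ± 0.14) and 2.06-fold higher on the dimmer (1.05 ± 0.14). For dod-22 the difference was 0.19 ± 0.13 and for the brighter dod-19 probe set 0.24 ± 0.21, with overlapping arrays. By the test, 1 of the 8 genes passed as higher in oga-1 than in ogt-1 (0.146% of all probe sets) and 2 as lower (0.368%). Arrays of the mutants did not overlap in 3 of 8 genes, against 9.87% of all probe sets. The calls of dod-24 and dod-17 were kept without any 1 array. That of C17H12.8 on its brighter probe set was kept in 1 of these 9 fits, and on its dimmer in all 9. These values follow from the same strain differences that helped to choose the genes, so they too are a description.

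Across the 9 arrays, which include the strain differences, dod-22 and C17H12.8 had a correlation of 0.980 and dod-24 and dod-17 of 0.890. Across these pairs the values were lower: 0.587 for dod-22 with dod-24, 0.125 for dod-17 with C17H12.8. The brighter dod-19 probe set correlated with dod-22 at 0.811 and with C17H12.8 at 0.797, and dod-3 with no other gene above 0.575.

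The genes most like each of these 4 in pattern were sought among 252 probe sets outside the group whose strain means span at least 1 log2 unit, by correlation over the 9 arrays. Closest to dod-24 were asp-14, an aspartyl protease gene (0.988), the C-type lectin gene clec-3 (0.984), both probe sets of shc-1, which encodes a Shc adaptor protein (0.984 and 0.979), and clec-143 (0.980). The asp-14 probe set differed from wild type by 1.85 in ogt-1 and 0.18 in oga-1, and that of clec-143 by 2.88 and 0.24. In wild type, clec-3 and shc-1 lay below the highest yeast control (means of 5.57 for clec-3 and 6.05 and 6.07 for shc-1), as did clec-3 in oga-1 (6.07). Closest to dod-17 were osgn-1 (0.995), the glutathione S-transferase genes gst-4 (0.974) and gst-7 (0.967), the dehydrogenase gene dhs-4 (0.969) and the nitrilase gene nit-1 (0.967). Of these, dhs-4 lay below the highest yeast control in oga-1 (6.15) and wild type (6.05). The nearest to dod-22 were the transporter gene slc-36.4 (0.965), the ornithine decarboxylase gene odc-1 (0.962), R04B5.6 (0.955), clec-76 (0.943) and clec-86 (0.936). C17H12.8 shared slc-36.4 (0.935), odc-1 (0.959) and R04B5.6 (0.935) with dod-22, and its others were hpo-6 (0.907) and sysm-1 (0.892). In wild type, R04B5.6 (6.08) and hpo-6 (6.07) lay below the highest yeast control, and sysm-1 (6.28) lay at its level. These correlations rest on 3 strains with 3 arrays each.

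Some of the genes also lie near each other. By the gene order of assembly WBcel235, 5 of the 9 lie on chromosome IV, 3 on chromosome V and 1 on chromosome II. On chromosome IV, dod-21, dod-24, dod-22 and dod-17 fall within a short stretch, with 6 protein-coding genes between dod-24 and dod-22 and 2 between dod-22 and dod-17. The stretch with 5 genes on either side holds 19 other genes, of which 16 were measured. In ogt-1 larvae 4 of the 16 rose and 1 fell, where 1.79% of all probe sets rose and 2.12% fell. In oga-1 larvae 2 rose and 1 fell, where 0.727% and 1.21% of all probe sets did.

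Of the neighbours, F55G11.8, next to dod-22, read 10.63, 10.56 and 10.68 in ogt-1, 9.61, 9.46 and 9.75 in oga-1, and 8.17, 7.82 and 8.40 in wild type, with no overlap. It rose 5.64-fold in ogt-1 (2.50 ± 0.14, adjusted p = 1.99e-06) and 2.78-fold in oga-1 (1.48 ± 0.14, adjusted p = 0.000338). F55G11.7, the gene beside it, rose 4.18-fold in ogt-1 (2.06 ± 0.13, adjusted p = 5.03e-06) and 2.72-fold in oga-1 (1.45 ± 0.13, adjusted p = 0.000282). On the other side of dod-22, F55G11.2 had 8.32, 8.03 and 8.50 in ogt-1, 6.35, 6.45 and 6.30 in oga-1, and 6.37, 5.88 and 6.26 in wild type. Only the ogt-1 arrays of this gene stood apart, with a rise of 2.12 ± 0.15 (adjusted p = 9.97e-06), while oga-1 differed by 0.20 ± 0.15 (adjusted p = 0.658). Its wild type mean of 6.17 lay within the range of the yeast controls, so the fold is not given. Between F55G11.2 and dod-17, mbug-1 differed by 0.04 in ogt-1 and 0.14 in oga-1, and neither passed.

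At the edge of the stretch, C32H11.4 rose by 2.08 ± 0.33 in ogt-1 (adjusted p = 0.00521), with uneven wild type arrays of 9.98, 9.60 and 11.24, and differed by 0.11 in oga-1. The gene beside it, srlf-4, fell by 0.75 in ogt-1 (adjusted p = 0.0175) and by 0.66 in oga-1 (adjusted p = 0.0487). Its ogt-1 call was lost without ogt-1 replicate 2 or 3 or wild type replicate 1, and its oga-1 call without any array but ogt-1 replicate 1. The 11 other measured genes of the stretch did not pass with either mutant. C32H11.4 and srlf-4 were named after their values were seen.

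**Figure D3:**
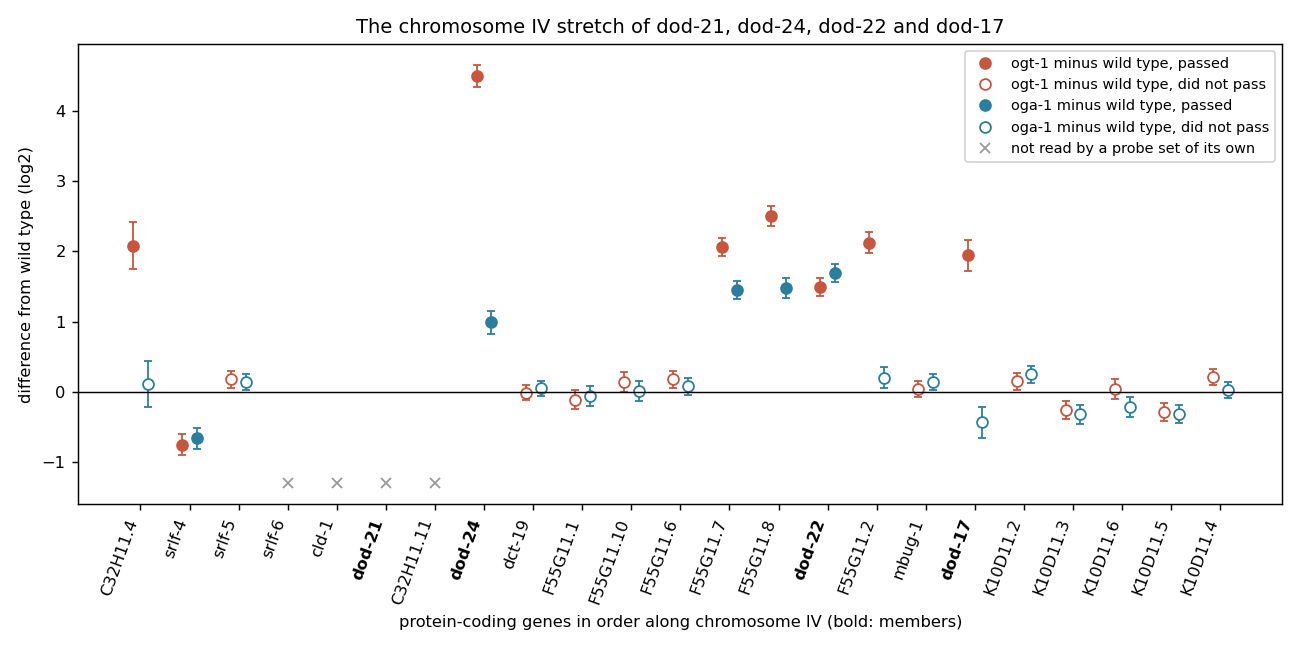
Difference from wild type (log2, vertical axis) of the 23 protein-coding genes around dod-21, dod-24, dod-22 and dod-17, in their order along chromosome IV and not to scale in distance. Bars are standard errors, filled points passed the test, and crosses mark 4 genes without a probe set of their own. In ogt-1, C32H11.4, F55G11.7, F55G11.8 and F55G11.2 lie between 2.06 and 2.50 and dod-17 at 1.94, while the 4 genes from dct-19 to F55G11.6 lie near 0.

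Taking the 5 protein-coding genes on either side of every one of the 9, 52 of 61 neighbours were measured. In ogt-1, 5 rose and 2 fell, where 1.79% and 2.12% of all probe sets did. In oga-1, 2 rose and 2 fell, where 0.727% and 1.21% of all probe sets did. With the replicate block on the oga-1 and wild type arrays alone, 3 rose and 3 fell in oga-1, and no share is given for that block. The medians of the 52 were 0.043 and 0.035. The other rise was H20E11.3, which lies 2 genes from C17H12.8. It read 7.87, 8.16 and 8.04 in ogt-1, 6.14, 6.18 and 6.35 in oga-1, and 6.15, 6.02 and 6.23 in wild type, a rise of 1.89 ± 0.11 in ogt-1 (adjusted p = 2.50e-06) beside 0.09 in oga-1 (adjusted p = 0.845). Its wild type and oga-1 means (6.14 and 6.22) lay within the range of the yeast controls, and C17H12.8 itself was highest in oga-1. The gene C17H12.6, immediately beside C17H12.8, differed by 0.03 and 0.06. F49E12.7, next to dod-23 and named after its values were seen, fell by 0.62 in ogt-1 (adjusted p = 0.0131) and by 0.71 in oga-1 (adjusted p = 0.0128). The first of these calls was lost without ogt-1 replicate 3 or wild type replicate 3. The F49E12.7 means in ogt-1 (6.18) and oga-1 (6.09) lay below the highest yeast control. The neighbours that passed in oga-1 with that block alone were irg-8, beside dod-19 (0.70, adjusted p = 0.0234, against 0.0953 without it), and H20E11.1, near C17H12.8 (-0.45, adjusted p = 0.0407, against 0.144). Both were named after their values were seen. The irg-8 means in ogt-1 (5.81) and wild type (6.02) also lay below the highest yeast control. Of the neighbours, 31 lay at or below the highest yeast control level in all strains.

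Tested directly between the mutants, 4 of the 52 neighbours were lower in oga-1 than in ogt-1, where 0.368% of all probe sets were. None was higher, where 0.146% of all probe sets were. The lower ones were H20E11.3 (-1.80, adjusted p = 4.11e-06), F55G11.2 (-1.92, adjusted p = 2.79e-05), F55G11.8 (-1.02, adjusted p = 0.00450) and C32H11.4 (-1.97, adjusted p = 0.0206). The last was lost without oga-1 replicate 1 or 2 or ogt-1 replicate 2 or 3. For F55G11.7 the difference was -0.62 (adjusted p = 0.105). The 4 that passed had also passed as higher in ogt-1 than in wild type, on the same ogt-1 arrays, so their direction is not a separate result.

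Other genes known to respond to DAF-16 were read from 2 lists that leave out the 9. Of 8 genes listed as lowered by DAF-16, none passed in ogt-1 (median -0.046) or oga-1 (median 0.050) over all 9 arrays. With the replicate block on the oga-1 and wild type arrays alone, 1 rose (gcy-18) and 1 fell (the peptide transporter gene pept-1) in oga-1. For this block no share of all probe sets is given. Among the 8, ins-7, an insulin-like peptide gene, differed by -0.01 and 0.05, dod-18 by -0.09 and 0.15, and the guanylyl cyclase gene gcy-18 by 0.47 and 0.59. In 5 of the 8 the level in all strains was at or below the highest yeast control.

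Of 37 genes listed as raised by DAF-16, 19 were measured. The others could not be matched to a probe set of their own, among them dod-1, dod-2, dod-4, dod-5 and dod-7 to dod-16. The counts therefore leave out most dod genes of that list. Of the 19, 5 rose and 2 fell in ogt-1, with a median of 0.008, and 3 rose in oga-1, with a median of 0.085. Over all probe sets, 1.79% and 2.12% rose and fell in ogt-1 and 0.727% rose in oga-1. With the replicate block on the oga-1 and wild type arrays alone, 6 rose and 1 fell in oga-1. The shares of all probe sets above come from the fit without a block, and none is given for this one. The metallothionein gene mtl-2 rose in both, by 1.62 ± 0.14 (adjusted p = 6.73e-05) and 1.21 ± 0.14 (adjusted p = 0.00185), and the small heat shock gene hsp-12.3 by 1.84 ± 0.27 (adjusted p = 0.00314) and 1.60 ± 0.27 (adjusted p = 0.0140). The oga-1 call of hsp-12.3 was lost without oga-1 replicate 1 or 2 or wild type replicate 2. The oxidative stress gene gst-4 rose in ogt-1 by 2.27 ± 0.17 (adjusted p = 1.31e-05) and differed by -0.39 in oga-1 (adjusted p = 0.316). A small heat shock gene, sip-1, fell in ogt-1 by 0.77 (adjusted p = 0.000669). The other rises in ogt-1 were hsp-12.6 (1.53, adjusted p = 0.0368) and hsp-16.2 (1.28, adjusted p = 0.029). In oga-1, hsp-16.2 rose too (1.26, adjusted p = 0.0476). The hsp-12.6 call was lost without oga-1 replicate 1 or any of the 3 ogt-1 arrays. Both hsp-16.2 calls were lost without ogt-1 replicate 2 or 3 or wild type replicate 1 or 3. That in oga-1 was also lost without oga-1 replicate 1 or 2. Both genes were named after their values were seen. The superoxide dismutase gene sod-3, a common readout of DAF-16, differed by -0.31 and -0.47 and did not pass (adjusted p = 0.665 and 0.510). Another gene of the same naming, dod-6, read 13.14, 13.04 and 13.09 in ogt-1, 13.20, 12.90 and 13.15 in oga-1, and 13.55, 13.41 and 13.62 in wild type. It fell by 0.43 in ogt-1 (adjusted p = 0.0499), a call that was lost in 8 of the 9 fits without 1 array, and differed by -0.44 in oga-1 (adjusted p = 0.0665). With the block it was the gene that fell in oga-1 (adjusted p = 0.0326). It was named after its values were seen.

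Of 16 measured genes of the insulin-like pathway itself, none passed with either mutant: the lowest and highest differences were -0.26 and 0.27 in ogt-1 and -0.27 and 0.31 in oga-1. The transcription factor gene daf-16 differed by 0.11 and 0.13, the receptor gene daf-2 by 0.00 and -0.15, and pqm-1, which encodes a factor acting opposite to DAF-16, by -0.10 and -0.10. Transcript levels do not show where the DAF-16 protein lies in the cell.

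**Figure D4:**
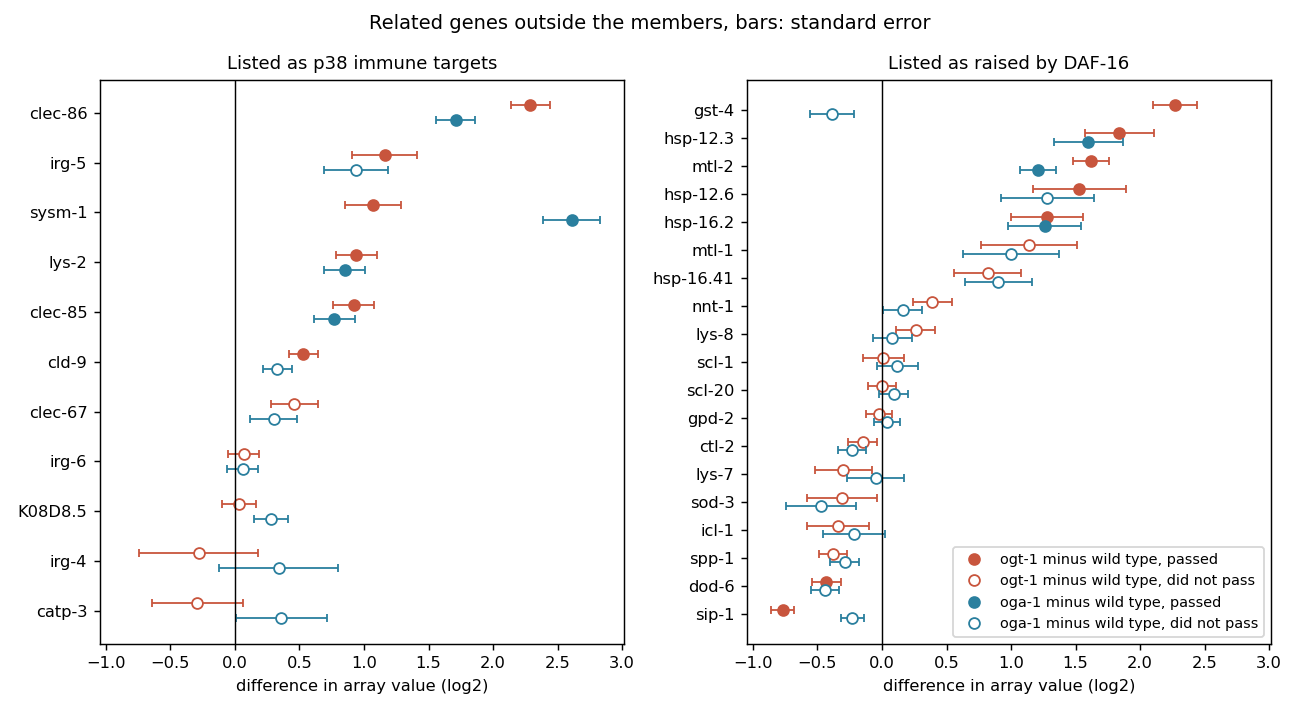
Differences from wild type (log2, horizontal axis) of 11 genes listed as p38 immune targets and 19 listed as raised by DAF-16, with bars of 1 standard error and filled points for differences that passed. On the left, sysm-1 is farther from wild type in oga-1 (2.61) than in ogt-1 (1.07). On the right, gst-4 is far from wild type in ogt-1 (2.27) alone.

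C17H12.8, dod-22 and dod-24 are known targets of the p38 immune pathway, so other genes of that kind were read beside them. Of 11 measured, 6 rose in ogt-1 and 5 did not pass, with a median of 0.533, and 4 rose in oga-1, with a median of 0.359. Over all probe sets 1.79% rose in ogt-1 and 0.727% in oga-1, with medians of 0.005 and 0.009. With the replicate block on the oga-1 and wild type arrays alone, 5 rose in oga-1, a count to which the shares above do not apply. The list was written with results for sysm-1 and clec-86 in these samples known, so it is no independent evidence of direction.

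The 4 that rose in both mutants were sysm-1, clec-86, lys-2 and clec-85. The peptide gene sysm-1 read 7.60, 7.36 and 7.10 in ogt-1, 9.14, 8.84 and 8.71 in oga-1, and 6.84, 6.15 and 5.86 in wild type, the same order of strains as C17H12.8. It rose by 1.07 ± 0.22 in ogt-1 (adjusted p = 0.0213) and by 2.61 ± 0.22 in oga-1 (adjusted p = 0.000160). Its wild type mean of 6.28 lay at the level of the highest yeast control, with wild type replicates 2 and 3 below that control. Its ogt-1 call did not hold when ogt-1 replicate 1 or 2 or wild type replicate 2 or 3 was dropped. The lectin gene clec-86 rose by 2.29 ± 0.15 and 1.71 ± 0.15 (adjusted p = 6.57e-06 and 0.000230). The lysozyme gene lys-2 rose by 0.94 and 0.85 (adjusted p = 0.00728 and 0.0228), and clec-85 by 0.92 and 0.77 (adjusted p = 0.00848 and 0.0350). In oga-1 the lys-2 call was lost without oga-1 replicate 1 or wild type replicate 2, and that of clec-85 without any array but oga-1 replicate 2 and ogt-1 replicates 1 and 3. The others that rose in ogt-1 were irg-5 (1.16, adjusted p = 0.025) and cld-9 (0.53, adjusted p = 0.025). The irg-5 call was lost without ogt-1 replicate 1 or 2 or any of the 3 wild type arrays. Its wild type mean of 5.84 lay below the highest yeast control. The cld-9 call was lost without ogt-1 replicate 2 or 3 or wild type replicate 2. Both were named after their values were seen. Of 7 measured genes of the p38 pathway itself none passed, with pmk-1 at 0.42 in ogt-1 (adjusted p = 0.366) and 0.01 in oga-1.

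These are whole larvae, so less RNA per cell and fewer cells of a type cannot be told apart. The dod genes are known mostly from the intestine, and of 11 intestinal marker genes none passed with either mutant over all 9 arrays, while pept-1 was lower in oga-1 with the block (-0.43, adjusted p = 0.0348). Their mean level per array was 10.93 to 10.95 in ogt-1, 10.77 to 11.03 in oga-1 and 10.83 to 11.02 in wild type. The intestinal factor gene elt-2 differed by -0.17 and -0.33 and the esterase gene ges-1 by 0.03 and 0.02. Of 8 muscle markers, the myosin gene unc-54 rose by 0.76 in ogt-1 (adjusted p = 0.00939) and by 0.81 in oga-1 (adjusted p = 0.0139), a call lost without oga-1 replicate 1, and myo-3 by 0.90 in oga-1 (adjusted p = 0.0490), a call kept only without wild type replicate 1. Muscle marker means per array were 12.11 to 12.23 in ogt-1, 12.16 to 12.32 in oga-1 and 11.73 to 12.09 in wild type, and the part of muscle in these results was not tested. Among 8 germline markers glh-1 fell by 0.48 in ogt-1 (adjusted p = 0.0434), a call lost without any of the 3 ogt-1 or 3 wild type arrays. No marker of neurons, pharynx or hypodermis (8 each) passed over all 9 arrays. With the block, ceh-22 of the pharynx and dpy-5 of the hypodermis were lower in oga-1 (-0.42 each, adjusted p = 0.0369 and 0.0377). The dpy-5 mean in oga-1 (6.14) lay below the highest yeast control.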

How the data were processed

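Affymetrix arrays were hybridised with biotin-labelled cRNA from 4 ug of total RNA, per the labels' protocols. The authors deposited a log2 value for each probe set. They ran from 4.16 to 14.68, with array means that differ by 0.0002. The authors' tools are given as MAS5, RMA and Partek per the submitters' processing notes, with no version or role. No further normalisation or filter was applied. The 77 control probe sets were left out.

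Each gene was read by its brighter 1-symbol probe set, named from the platform annotation, in which 20766 tested probe sets have 1 symbol, 887 more than 1, and 895 have none. List genes and gene order were matched through RefSeq's gene table (WBcel235), which gives no domain descriptions, so no list of CUB-like genes was made. Differences were tested with limma 3.58.1 (R 4.3.3), fitting strain means by lmFit and eBayes (6 residual and 5.65 prior degrees of freedom), Benjamini-Hochberg over 22548 probe sets in each contrast, called under 0.05. The fit was also run on simulated data in which all probe sets had the same spread and arrays were independent. That run does not show how the fit performs with the unequal spreads and correlated arrays of these data. The members and lists were chosen with earlier results of these data known. Named from lists were up to 4 called genes by smallest p over the contrasts with wild type, and the 5 probe sets most correlated with each of 4 members.

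Deviations from strain means of same-numbered arrays correlated at 0.481, 0.432 and 0.357 between oga-1 and wild type, so these numbers were taken to pair them. Between ogt-1 and wild type they did not (-0.096, -0.016 and -0.002). Alternatives are a replicate block, median centring, quantile normalisation, a filter on the dimmest 25% of probe sets, a variance trend with robust fitting, 2 strains alone, and each array left out. The block on oga-1 and wild type alone was added after seeing the data, and the share of all probe sets that pass with it is not given here.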

Additional observations from a re-analysis of the deposited data

Results flagged for a closer look

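Among the neighbours and list genes that the naming rule picked, 6 differed between the oga-1 and ogt-1 larvae by the limma test of the difference itself. Given as oga-1 minus ogt-1 on the log2 scale, the differences were -1.92 for F55G11.2, -1.02 for F55G11.8, -1.80 for H20E11.3, -2.66 for gst-4 (adjusted p = 4.11e-06), 0.54 for sip-1 (adjusted p = 0.0196) and 1.54 for sysm-1 (adjusted p = 0.00599). C32H11.4, named after its values were seen, also passed (-1.97, adjusted p = 0.0206). The sip-1 call was lost without any of oga-1 replicates 1 and 2 or ogt-1 replicates 1, 2 and 3.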

How the results depend on the processing

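The number of members that passed was 4 for ogt-1 with wild type, 3 for oga-1 with wild type and 3 for oga-1 with ogt-1, and with 1 array left out it ran from 4 to 5, 2 to 4 and 2 to 3. With the replicate block over all 9 arrays it was 4, 3 and 3. It was 4, 4 and 3 with a variance trend and robust fitting, 4, 4 and 2 with 2 strains alone, and 4, 3 and 2 with median centring. The members that passed kept their direction under every alternative run. Neighbours that passed numbered 7, 4 and 4 in the same order of contrasts, and 8, 4 and 5 with the replicate block, and for oga-1 with wild type 6 with the block on those strains alone. Genes of the related lists numbered 13, 7 and 3, and 14, 10 and 3 with the replicate block over all 9 arrays. The list count for ogt-1 with wild type ran from 7 (without ogt-1 replicate 2) to 13 with 1 array left out. For oga-1 with wild type it ran from 3 (without oga-1 replicate 1; 4 without wild type replicate 2) to 7, and was 14 with the replicate block on these 2 strains alone, an alternative chosen after seeing the data. The cause was not tested. Between ogt-1 and wild type the arrays share only a number. Depth does not apply to arrays: precision rests on 3 arrays a strain, and the values of dod-20, dod-23 and the probe set of dod-21 lie near or below the highest yeast control, where a difference may go undetected.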
